A study of Mus musculus with 28 samples.

Results

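Normal basal and luminal cells of the mouse mammary gland were compared 8 weeks after tamoxifen. The comparison used 4 of the 28 arrays of the series, chosen by their titles alone, and all genes on them. The 2 basal arrays came from YFP-positive cells of K5CREERT2/RosaYFP mice and the 2 luminal arrays from YFP-positive cells of K8CREERT2/RosaYFP mice. Both groups were female mice given 3 injections of 5 mg tamoxifen from the age of 4 to 5 weeks, and neither carried a mutant oncogene. K5CREERT2 and K8CREERT2 are tamoxifen-inducible Cre recombinases under the control of a basal and a luminal keratin, and RosaYFP is a reporter that Cre switches on permanently. Glands were digested with collagenase and hyaluronidase, and YFP-positive cells were sorted by flow cytometry. The Cre driver changed together with the cell layer, so the effect of the layer and that of the driver or mouse line cannot be told apart, and cells that never recombined the reporter are not represented. The labels do not say that the replicates came from separate mice. Each p-value therefore measures only the spread between arrays within groups, pooled over the sorted arrays described below.

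The mammary duct is a tube of 2 epithelial layers. Luminal cells line the lumen, are joined by tight junctions, and include cells that sense oestrogen and progesterone and progenitors of the milk-producing alveoli. Basal, or myoepithelial, cells lie outside them on the basement membrane, contract in response to oxytocin to eject milk, and exchange Wnt, Notch, EGF and other signals with the luminal layer and the stroma.

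Values are log2 expression, and every difference is basal minus luminal on the log2 scale ± its standard error from limma, with 2 arrays in each group. The spread was estimated over all 16 sorted arrays of the series, and p-values were adjusted over 13150 genes by the Benjamini-Hochberg method. A gene was called at an adjusted p under 0.05. In the sentences below the 2 luminal readings come first and the 2 basal readings second, each in the order of replicates 1 and 2. A reading below the dim limit, the 40th percentile of its array (3.89 to 3.99), has little room to fall further, so differences that start there depend on the floor of the array. Of the tested genes named below, both luminal readings were under their arrays' limits for Abcb1b, Actg2, Brinp3, Cntn1, Ephb1, Fgf2, Kcnmb1, Lgr5, Slit2, Wif1 and Wnt10a, and 1 of them for Axin2, Gfra1, Hepacam2, Lhfp, Prrx1, Reln, Scn7a, Snai2 and Tenm2. Both basal readings were under the limits for Bmpr1b, Brinp3, Erbb4, Hepacam2, Kit, Nrg4, Rspo1 and Usp18, and 1 of them for Akr1c13, Btc, Cdca8, Cntn1, Foxa1, Greb1, Mcm2 and Tnfsf11. Readings of different genes depend on their probes and were not ranked against each other.

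The 4 arrays had medians of 4.41 to 4.48. Across all genes the basal replicates correlated at 0.976 and the luminal replicates at 0.984, against 0.892 to 0.911 between a basal and a luminal array. These are correlations across genes, which are not independent replicates. Of the 13150 genes, 3987 (30.3%) were called, 1373 (10.4%) higher and 2614 (19.9%) lower in basal cells. Fewer genes were higher in basal cells, but their differences reached further. At least 8-fold differences were called for 93 genes higher and 18 genes lower in basal cells, and at least 16-fold for 29 and 0. The number called was 2094 without luminal replicate 1 and 2367 without basal replicate 1. The lower calls went from 2614 to 1226 and 1233, and the higher calls from 1373 to 868 and 1134.

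Markers of other cells differed between the groups too. Of 16 endothelial genes, 12 were higher in basal cells. Their mean was 4.72 and 5.55 on the luminal arrays and 6.15 and 7.11 on the basal arrays. The adhesion molecule Pecam1 read 5.39 and 7.07 against 7.93 and 9.02. It was not called without luminal replicate 1 or basal replicate 2 (adjusted p up to 0.18), and without either of these arrays 2 of the 16 genes were called. Pericyte genes were called higher in 3 of 6 and lower in 1, Notch3, with list means of 5.29 and 5.75 against 6.07 and 6.74. The higher calls numbered 1 of 6 without luminal replicate 1 and 1 of 5 without basal replicate 2. The receptor Mcam, which myoepithelial and endothelial cells also express, kept its call without each array and lost it with the endothelial covariate described below. Fibroblast genes were higher in 2 of 8 (means 5.70 and 6.83 against 7.46 and 8.14), with Pdgfra and Col1a2 below the dim limit, and in 5 without luminal replicate 2. Immune genes were higher in 1 of 12 (4.79 and 5.84 against 5.75 and 6.20) and in 5 without luminal replicate 2, with Ptprc, Ms4a1 and Itgam below the limit. None of 4 adipocyte or 4 skeletal muscle genes was called, and Adipoq, Lep, Acta1 and Myh4 were below the limit. Of 3 Schwann cell genes 1 was higher, which was lost without luminal replicate 1 or basal replicate 1, and of 4 erythroid genes 1 was lower, which was kept only without basal replicate 2. The part of these cells in the results below was not tested. In such sorted bulk samples, fewer cells of a type and less RNA per cell cannot be told apart. Taking each array's endothelial mean as a covariate left 1214 calls, 415 higher and 799 lower. Of the 362 list members called, 145 kept their calls with that covariate, 212 in a fit of all 28 arrays and 187 in every fit that left out 1 of the 4 arrays.

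**Figure D1:**
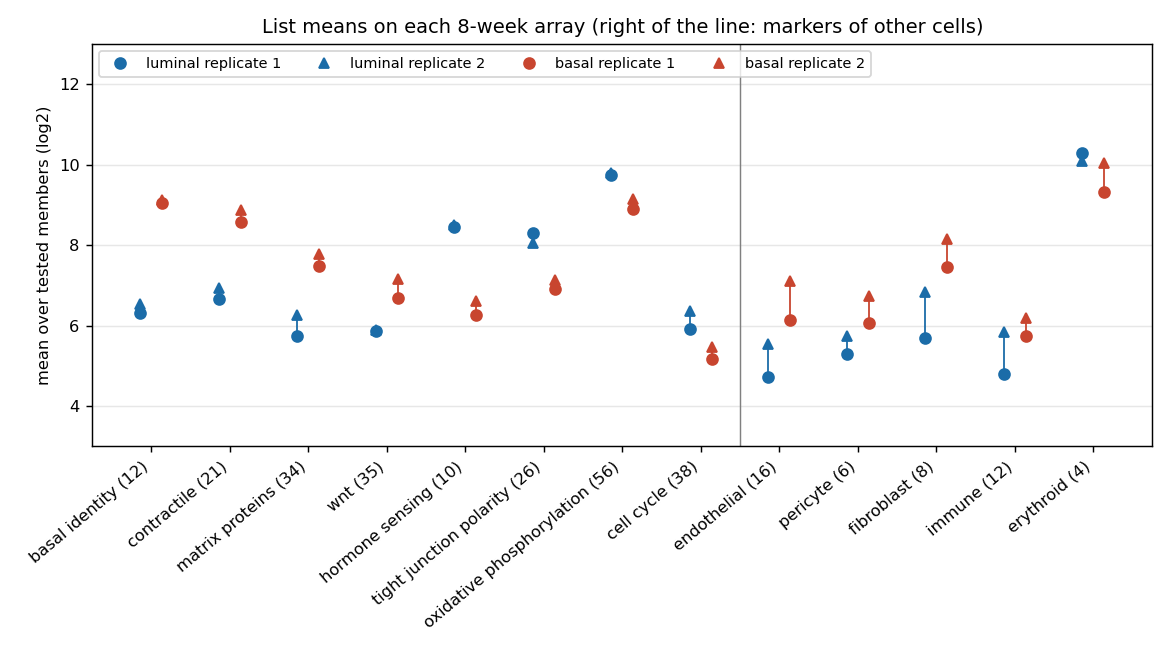
Mean log2 expression over the tested members of 13 gene lists on each 8-week array. Circles are replicate 1 and triangles replicate 2, blue luminal and red basal, with a line joining the replicates and the number of genes in brackets. Basal identity, contractile, matrix and Wnt genes lie higher and hormone-sensing, junction, oxidative phosphorylation and cell cycle genes lower on both basal arrays. Right of the vertical line, endothelial, pericyte and fibroblast means are higher on both basal arrays and the replicates stand apart, with 4.72 and 5.55 for the endothelial list on the luminal arrays.

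All 12 listed basal identity genes were called higher in basal cells, against 10.4% of all genes. The median difference was 2.59, where all genes had -0.09. The list was chosen with earlier results of these data known, so the count is a description. With the endothelial covariate 8 of the 12 were called higher, and in the fit of all 28 arrays 9. Krt5, the keratin whose promoter drives the basal Cre, read 7.45 and 8.09 on the luminal arrays and 11.36 and 11.56 on the basal arrays. Its partner Krt14 read 8.39 and 8.46 against 11.71 and 11.59. Both keratins read well above the dim limit on the luminal arrays too, and far higher on the basal arrays. Trp63, the transcription factor that maintains basal epithelium, read 5.61 and 5.12 against 9.01 and 9.41, a difference of 3.85 ± 0.31 (adjusted p = 7.76e-06). Cdh3, or P-cadherin, which joins basal cells, read 4.99 and 5.23 against 9.15 and 9.25 (4.09 ± 0.31). Snai2, a repressor of epithelial genes, read 3.72 and 4.00 against 6.45 and 6.27 (2.50 ± 0.16), so the luminal readings were at the dim limit. Id4, an inhibitor of helix-loop-helix factors, read 7.31 and 8.45 against 10.84 and 10.54 (2.81 ± 0.34), and the membrane peptidase Mme, or CD10, 7.27 and 6.40 against 8.57 and 8.75 (1.83 ± 0.30). Procr, a receptor reported on some mammary stem cells, read 6.62 and 7.41 against 9.28 and 9.66 (2.46 ± 0.58) and lost its call without luminal replicate 1 (adjusted p up to 0.0721). Krt15, a keratin of stratified epithelia, differed by 1.02 ± 0.36 and lost its call in each fit that left out 1 of the 4 arrays (adjusted p up to 0.169).

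**Figure D2:**
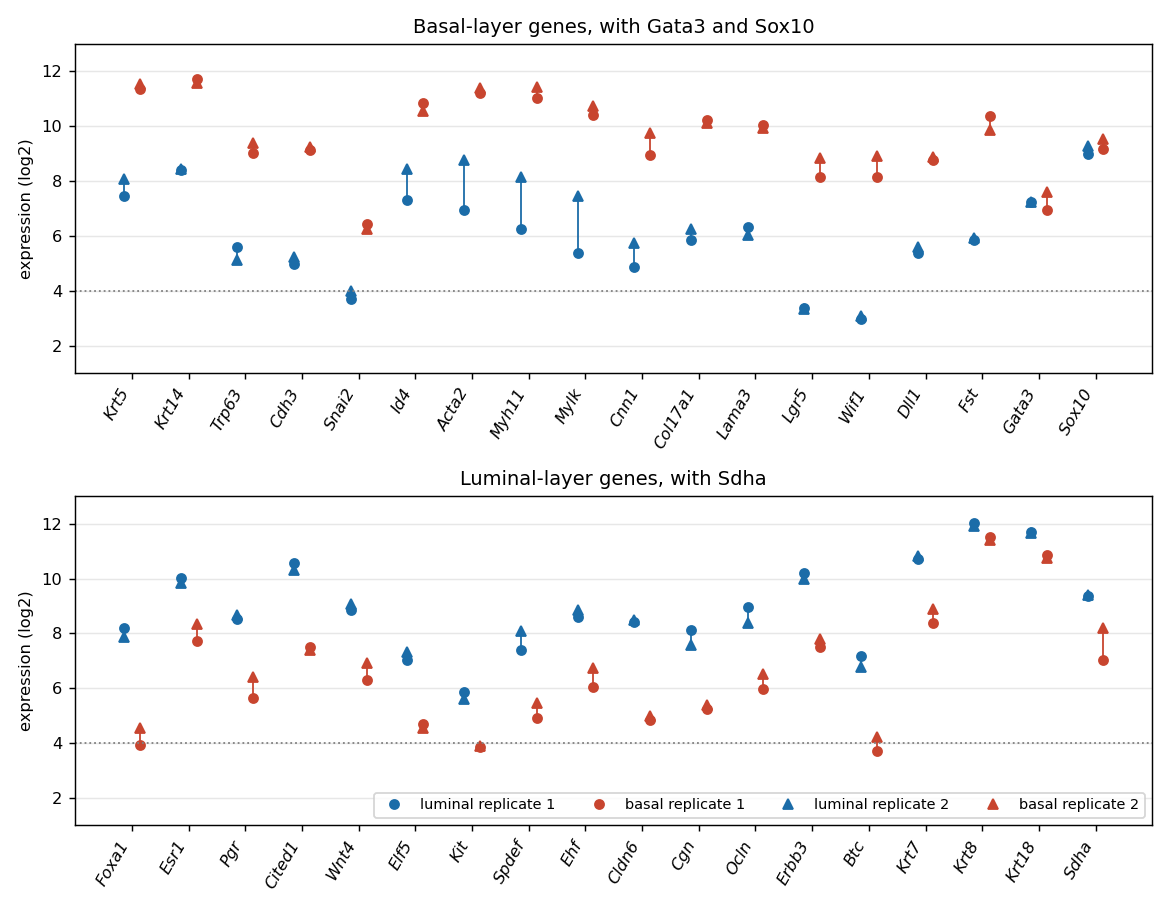
Log2 expression of 36 genes on each 8-week array. Circles are replicate 1 and triangles replicate 2, blue luminal and red basal, with a line joining replicates and a dotted line at the dim limit of 3.99. Luminal readings of Wif1 and Lgr5 lie below the limit, the luminal replicates of Acta2, Myh11 and Mylk stand apart, and the groups overlap for Gata3 and Sox10.

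Transcription factors, some of them also on the identity lists, were called in both directions. Of 49 tested, 15 (30.6%) were higher and 8 (16.3%) lower in basal cells, beside 10.4% and 19.9% of all genes. The share called lower was thus not above that of all genes. Egr2, a zinc-finger factor induced by growth signals, read 6.54 and 6.41 against 8.85 and 10.11 (3.00 ± 0.33, adjusted p = 6.18e-05). Tfap2c read 7.65 and 7.93 against 9.16 and 9.66 (1.62 ± 0.20) and Bcl11b, known from T cells and mammary basal cells, 4.51 and 4.23 against 5.94 and 5.77 (1.48 ± 0.21). Both lay higher on each basal array than on either luminal array, as did every gene called higher. Cebpb (1.33 ± 0.19) and the Hippo pathway effector Yap1 (0.82 ± 0.17) were higher as well, and Nfix by 0.66 ± 0.15. The homeobox factor Msx2 was lower, with 6.10 and 6.13 against 4.08 and 4.61 (-1.77 ± 0.27).

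Several regulators known from 1 layer were not called. Gata3, a factor of luminal identity, read 7.24 and 7.23 against 6.96 and 7.60, a difference of 0.04 with a 95% interval, not adjusted for the number of genes, of -0.50 to 0.59. Sox9, known from luminal progenitors and stem cells, differed by 0.04 (-0.33 to 0.41), and Sox10, a factor of neural crest and mammary stem cells, by 0.21 (-0.35 to 0.76). All 3 intervals include 0 but are wide, so modest differences were not detectable with 2 arrays a group. The intervals also included 0 for the hemidesmosome integrin Itgb4, at 0.02 (-0.41 to 0.46), and the secreted iron-siderophore binder Lcn2, at 0.06 (-0.26 to 0.37).

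Contractile genes were higher in basal cells. Of 21 tested, 16 were called higher and none lower, with a median difference of 1.27. Acta2, smooth muscle actin, read 6.94 and 8.76 against 11.22 and 11.39 (3.45 ± 0.48, adjusted p = 0.000315). Myh11, the smooth muscle myosin heavy chain, read 6.25 and 8.16 against 11.04 and 11.44 (4.04 ± 0.56), and Mylk, the kinase that switches that myosin on, 5.37 and 7.45 against 10.41 and 10.75 (4.17 ± 0.45). In these 3 genes luminal replicate 2 lay well above luminal replicate 1, and both lay below the basal arrays. The actin-binding calponin Cnn1 read 4.89 and 5.74 against 8.95 and 9.75 (4.03 ± 0.36) and the myosin light chain Myl9 6.19 and 7.22 against 10.26 and 10.75 (3.80 ± 0.37). Cald1 (3.16 ± 0.29), Tpm2 (3.10 ± 0.23), Actg2 (2.94 ± 0.25) and the potassium channel subunit Kcnmb1 (2.81 ± 0.36) were higher, and so was the oxytocin receptor Oxtr, with 4.55 and 4.53 against 5.56 and 6.07 (1.27 ± 0.24). Smooth muscle of vessels expresses most of these genes too. The pericyte gene Rgs5 read 5.41 and 7.10 against 7.87 and 8.85 and lost its call without luminal replicate 1 or basal replicate 2 (adjusted p up to 0.155), and with each array's endothelial mean as a covariate 10 of the 21 contractile genes were called higher. The general regulators were not called. Srf, the factor that binds the CArG box of muscle genes, read 9.70 and 8.91 against 9.31 and 9.31 (0.00, interval -0.50 to 0.51), and its coactivator Mrtfa differed by 0.27 (-0.18 to 0.71). Myocd, the smooth muscle coactivator, was below the dim limit.

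The CArG box was searched because it is the site that Srf binds in contractile genes. Only its strict form CCWWWWWWGG, where W is A or T, was searched, on both strands from 250 bases before to 50 after the gene start. It was present in 4 of the 20 contractile genes with a promoter in the RefSeq table (build GRCm38.p6) and in 1.81% of all 27025 genes with one. Of the 4 genes, Myl9 was higher in basal cells, while Cnn2 (0.58), Vcl (0.41) and Srf itself were not called. The promoter stretches are shown 5′ to 3′ in the direction of the gene, with the CArG box in capitals. Srf held 2 boxes, of which the one nearer the gene start is in capitals, and none of the boxes shown overlapped another motif searched.
Myl9 (chr2:156775278-156775337, plus strand): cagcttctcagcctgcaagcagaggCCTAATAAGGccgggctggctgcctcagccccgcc
Cnn2 (chr10:79988519-79988578, plus strand): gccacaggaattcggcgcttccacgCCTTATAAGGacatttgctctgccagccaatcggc
Vcl (chr14:20929148-20929205, plus strand): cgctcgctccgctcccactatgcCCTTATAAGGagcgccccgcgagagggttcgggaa
Srf (chr17:46556190-46556249, minus strand): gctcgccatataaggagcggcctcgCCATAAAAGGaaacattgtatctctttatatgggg
Promoters of Acta2, Mylk and Cnn1 held no match to this strict form in this window. Boxes with other letters were not searched, so these genes cannot be said to lack a site for Srf. No promoter of Myh11, Actg2 or Myocd was matched.

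Hemidesmosome and basement membrane genes, which anchor basal cells, were higher in basal cells in 14 of 18. The median difference was 2.08. Col17a1, the transmembrane collagen of hemidesmosomes, read 5.85 and 6.25 against 10.22 and 10.13 (4.12 ± 0.41, adjusted p = 3.15e-05). The laminin chains Lama3 (6.33 and 6.04 against 10.06 and 9.94, 3.82 ± 0.39), Lama1 (2.86 ± 0.24), Lamb1 (2.62 ± 0.35) and Lamb3 (2.27 ± 0.24) rose together with the collagen IV chains Col4a1 (2.23 ± 0.32) and Col4a2 (3.41 ± 0.33). Nidogen Nid1 (2.44 ± 0.44), perlecan Hspg2 (1.93 ± 0.33) and the anchoring fibril collagen Col7a1 (4.88 and 5.26 against 7.99 and 8.40, 3.13 ± 0.29) did so too. The linker Plec was the only member called lower (-0.62 ± 0.19), and it lost that call without luminal replicate 1, basal replicate 1 or basal replicate 2 (adjusted p up to 0.2). Integrins, the receptors for these proteins, were higher in 5 of 14, and in 2 and 1 without luminal replicate 1 and 2. Only Itga9, a receptor for tenascin and other ligands, kept its call without each array, with 4.50 and 4.44 against 7.54 and 8.11 (3.35 ± 0.33). The luminal progenitor integrin Itga2 differed by -0.13 (-1.01 to 0.75).

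Matrix genes beyond the basement membrane were also widely higher. Of 34 tested, 22 were higher and 2 lower, with a median of 1.90. Col14a1, a collagen that binds fibrils and is also on the fibroblast list, read 4.80 and 5.07 against 9.18 and 9.68 (4.49 ± 0.46). The proteoglycans Bgn (5.69 and 7.61 against 10.14 and 10.43, 3.63 ± 0.54) and Vcan (3.33 ± 0.26), the collagen V chains Col5a1 (2.32 ± 0.38) and Col5a2 (3.35 ± 0.29), and Postn, or periostin (3.18 ± 0.24), were higher. Reln, a large secreted glycoprotein of neuronal migration, read 3.78 and 4.57 against 7.37 and 7.71 (3.36 ± 0.25). Fibril collagens of the stroma gave wider readings. Col1a1 read 6.04 and 8.33 against 8.86 and 9.10 (1.80, adjusted p = 0.14) and Col3a1 5.84 and 8.50 against 8.72 and 9.39 (1.88, adjusted p = 0.121), and neither was called. Dcn, a proteoglycan abundant in fibroblasts, read 9.87 and 9.03 against 9.10 and 9.65, a difference of -0.07. The fibroblast list means given above were higher on the basal arrays too, and their part was not tested. With the endothelial covariate 12 of the 34 were called higher. The member called lower that kept its call without each array was nephronectin Npnt, an integrin ligand, with 7.46 and 7.81 against 5.18 and 5.36 (-2.37 ± 0.37), whereas Col8a1 was not called without luminal replicate 2 or basal replicate 1.

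Of 26 genes for proteases of the matrix and their inhibitors, 12 were higher and 3 lower. The gelatinase Mmp2 read 4.03 and 5.70 against 9.42 and 9.84 (4.77 ± 0.56) and the aggrecanase-family protease Adamts1 5.82 and 5.59 against 8.95 and 8.72 (3.13 ± 0.21). For both genes each basal reading lay well above each luminal one. Adamts5 (2.10 ± 0.17), Htra1 (2.21 ± 0.35), the plasminogen activator Plat (2.26 ± 0.39) and the inhibitor Timp3 (2.16 ± 0.44) were higher. The 3 lower genes encode membrane-bound proteases, with Adam8 at 7.23 and 6.53 against 4.42 and 4.52 (-2.41 ± 0.49), Adam10 (-1.71 ± 0.40) and matriptase, St14 (-1.29 ± 0.22).

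Of 12 genes of mesenchymal transition 8 were higher, with 4 left without luminal replicate 1 and 4 without basal replicate 2. With the endothelial covariate 3 of the 12 were higher and the median difference went from 1.18 to 0.35, and in the fit of all 28 arrays 3 of 13 were higher. The homeobox factor Prrx1 read 3.75 and 4.01 against 6.44 and 7.00 (2.84 ± 0.35), the filament protein Vim 6.46 and 7.84 against 9.81 and 9.86 (2.68 ± 0.37) and the matrix protein Sparc 8.07 and 10.05 against 11.46 and 11.53 (2.43 ± 0.47), each with luminal replicate 2 above replicate 1. Zeb1 differed by 0.32 (-0.85 to 1.49) and was not called.

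Wnt pathway genes were higher in basal cells in 19 (54.3%) and lower in 4 (11.4%) of 35, beside 10.4% and 19.9% of all genes. Receptors and secreted inhibitors made up most of the rises. Lgr5, which binds R-spondins and keeps Wnt receptors on the surface, read 3.37 and 3.33 against 8.16 and 8.86 (5.16 ± 0.28, adjusted p = 5.36e-07). Both luminal readings were below the dim limit and both basal readings far above it, so the size of the difference depends on the floor of the array. Its relative Lgr4 read 6.32 and 5.25 against 8.40 and 8.27 (2.55 ± 0.39) and Lgr6 6.73 and 6.79 against 7.66 and 8.64 (1.39 ± 0.30). Frizzled receptors Fzd7 (5.18 and 5.29 against 6.69 and 8.48, 2.35 ± 0.43) and Fzd1 (1.83 ± 0.31) and the coreceptor Lrp6 (1.56 ± 0.22) were higher. Among secreted inhibitors, Wif1 read 2.97 and 3.10 against 8.16 and 8.92 (5.50 ± 0.31), Sfrp1 5.04 and 5.11 against 8.36 and 8.96 (3.59 ± 0.30) and Dkk3 5.28 and 5.10 against 7.92 and 8.46 (3.00 ± 0.39). For Wif1, as for Lgr5, both luminal readings were below the dim limit. The repressor Tcf7l1 was higher by 1.68 ± 0.23 and the ubiquitin ligase Rnf43, which removes Wnt receptors, by 1.26 ± 0.23. The feedback gene Axin2 differed by 0.99 ± 0.26 but lost its call without luminal replicate 1 or basal replicate 2 (adjusted p up to 0.12).

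Wnt ligands divided between the layers. Wnt4, a target of progesterone, read 8.84 and 9.06 against 6.28 and 6.92 (-2.34 ± 0.35) and Wnt7b 9.21 and 8.57 against 6.49 and 6.92 (-2.19 ± 0.26), both lower in basal cells. Wnt11 was higher, with 5.24 and 5.31 against 6.15 and 6.32 (0.96 ± 0.21). Wnt10a was higher by 2.49 ± 0.63 and lost its call without luminal replicate 1 or basal replicate 1 (adjusted p up to 0.0939). The agonist Rspo1 was lower in basal cells, with 4.84 and 5.21 against 3.27 and 3.41 (-1.69 ± 0.22). Wnt5a (-0.68), Wnt5b (-0.34) and Wnt6 (0.54) were not called. Called activators thus lay on both sides, with Wnt4, Wnt7b and Rspo1 higher in luminal and Wnt10a and Wnt11 higher in basal cells.

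The Notch pathway list had 4 of 20 members higher (20%) and 1 lower (5%), beside 10.4% and 19.9% of all genes. Of the ligands, Dll1 read 5.40 and 5.60 against 8.78 and 8.87 (3.33 ± 0.23, adjusted p = 3.33e-06) and Jag1 7.84 and 7.97 against 10.23 and 9.91 (2.16 ± 0.32), both higher in basal cells, whereas Dll4 was not called (0.20, -0.24 to 0.63). The Numb relative Numbl was higher by 1.52 ± 0.25. Notch1 (0.41, interval 0.03 to 0.79) and Notch2 (0.09, -0.39 to 0.58) were not called. Notch3 differed by -0.98 ± 0.32, called lower, and lost the call without luminal replicate 1 or 2 or basal replicate 1 (adjusted p up to 0.316). Of the targets, Hes1 differed by -1.06 (adjusted p = 0.0703) and Hey1 by 0.64 (adjusted p = 0.292).

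The EGF family was called in both directions, with 6 of 16 genes higher (37.5%) and 6 lower (37.5%), beside 10.4% and 19.9% of all genes. Egfr read 7.91 and 7.63 against 8.68 and 9.03 (1.08 ± 0.22) and was higher in basal cells, whereas Erbb2 (7.42 and 7.15 against 5.95 and 6.26, -1.18 ± 0.22) and Erbb3 (10.21 and 9.97 against 7.50 and 7.79, -2.45 ± 0.39) were lower. Among ligands, neuregulin Nrg1, which binds Erbb3 and Erbb4, was higher in basal cells, with 4.80 and 4.51 against 7.41 and 6.68 (2.39 ± 0.47). Betacellulin, Btc, a ligand of Egfr, was lower, with 7.19 and 6.76 against 3.70 and 4.24 (-3.01 ± 0.23), and Nrg4 was lower too (-1.58 ± 0.27). The ligand Nrg1 and the receptor Erbb3 thus read highest in opposite layers, as did Btc and Egfr. Lrig1, which promotes the degradation of these receptors (1.24 ± 0.24), and its relative Lrig3 (2.15 ± 0.43) were higher in basal cells.

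FGF and ERK feedback genes were higher in 9 of 16 and lower in 1, with 5 higher without luminal replicate 1 and 5 without basal replicate 2. The ligand Fgf2 read 3.53 and 3.44 against 6.51 and 6.22 (2.88 ± 0.24) and the receptor Fgfr1 10.43 and 10.26 against 11.11 and 11.12 (0.77 ± 0.17). Of the feedback genes that ERK induces, the phosphatase Dusp6 (7.02 and 7.02 against 8.52 and 8.34, 1.41 ± 0.23) and the inhibitor Spred1 (1.02 ± 0.22) kept their calls without each array.

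TGF-beta and BMP genes were higher in 16 and lower in 2 of 30. The secreted antagonist of activin Fst read 5.85 and 5.92 against 10.39 and 9.85 (4.24 ± 0.54, adjusted p = 0.000171) and the follistatin-like Fstl1 3.89 and 5.92 against 8.69 and 9.29 (4.08 ± 0.59). The coreceptor Tgfbr3 (5.90 and 6.18 against 9.70 and 10.03, 3.83 ± 0.37) and the latent TGF-beta binding proteins Ltbp2 (3.14 ± 0.26) and Ltbp4 (3.00 ± 0.47) were higher. The pseudoreceptor Bambi (2.34 ± 0.29), the inhibitory Smad7 (1.69 ± 0.27) and the ligand Bmp7 (4.50 and 4.89 against 6.83 and 7.02, 2.23 ± 0.20) were higher too. Fst, Bambi and Smad7 are known to restrain the pathway. The ligand Tgfb1 (-0.39, -1.03 to 0.25) was not called, and the receptor Bmpr1b was lower (-1.37 ± 0.29). The other lower call, Ltbp1, was lost without luminal replicate 1 or basal replicate 1.

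Of 9 genes of the IGF axis 8 were higher in basal cells, with 3 left without luminal replicate 1, 5 without luminal replicate 2 and 4 without basal replicate 2. With the endothelial covariate 3 were higher and the median difference went from 1.68 to 0.35, and in the fit of all 28 arrays 2 were higher. Igfbp3, which binds IGFs in the extracellular space, read 4.55 and 6.18 against 10.53 and 10.22 (5.01 ± 0.70), and Igfbp2 4.58 and 4.78 against 6.07 and 7.24 (1.97 ± 0.31). The receptor Igf1r read 6.23 and 5.97 against 7.64 and 7.92 (1.68 ± 0.18), and these 3 kept their calls without each array. Of 12 hedgehog genes 4 were higher. The coreceptors Gas1 (4.72 and 5.03 against 6.77 and 8.01, 2.52 ± 0.37) and Boc (5.55 and 6.23 against 7.65 and 8.14, 2.00 ± 0.42) were the ones that kept their calls.

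Chemokines and cytokines were higher in 5 (25%) and lower in 2 (10%) of 20, beside 10.4% and 19.9% of all genes. Cxcl14 read 5.58 and 6.97 against 11.21 and 11.12 (4.89 ± 0.52), Cxcl12, the ligand of Cxcr4, 4.13 and 5.79 against 9.43 and 9.26 (4.39 ± 0.55), and the cytokine Il17b 4.72 and 6.48 against 9.53 and 9.97 (4.15 ± 0.51). All 3 were among the 20 largest rises. Cxcl17 was lower, with 7.95 and 7.22 against 5.19 and 5.31 (-2.34 ± 0.36). The count of lower genes was 1 without luminal replicate 2 or basal replicate 1.

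Axon guidance genes, which also position epithelial cells, were higher in 19 (48.7%) and lower in 4 (10.3%) of 39. The shares of all genes were 10.4% and 19.9%. The lower calls numbered 2 without luminal replicate 1 and 1 without basal replicate 1. Sema5a read 4.01 and 5.29 against 8.58 and 8.93 (4.11 ± 0.38), the Eph receptor Ephb1 3.68 and 3.53 against 6.50 and 6.79 (3.04 ± 0.27) and netrin Ntn4 5.43 and 5.03 against 7.36 and 8.57 (2.74 ± 0.42). Slit2, a repulsive ligand, was higher by 1.33 ± 0.23, and the ephrin Efnb2 by 1.83 ± 0.31. Sema4d was lower, with 8.27 and 8.20 against 6.43 and 7.17 (-1.44 ± 0.26).

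The largest differences included genes better known from nerve and stroma than from epithelium. Tenm2, a teneurin of neuronal contacts, had the largest rise, with 3.81 and 4.71 on the luminal arrays and 9.77 and 9.84 on the basal arrays (5.54 ± 0.31, adjusted p = 6.53e-07). The sodium channel family member Scn7a read 3.63 and 5.00 against 9.32 and 9.41 (5.05 ± 0.39), the secreted peptide precursor Ecrg4 4.22 and 4.79 against 9.59 and 9.49 (5.03 ± 0.21), and the GDNF coreceptor Gfra1 3.94 and 3.90 against 8.88 and 8.92 (4.98 ± 0.55). At least 1 luminal reading of Tenm2, Scn7a and Gfra1 was below the dim limit, while the basal readings of all 4 genes were far above it. The mucin-type membrane protein Pdpn, a marker of lymphatic endothelium that basal epithelia also express, read 4.52 and 6.52 against 10.45 and 10.01 (4.71 ± 0.67). The remaining rises among the top 20 were Lhfp (4.59), the proteoglycan Spock2 (4.49), the small GTPase Gem (4.42), the protease inhibitor Serpina3n (4.25) and the pentraxin Ptx3 (4.79), besides those given above. These 20 were picked as the largest called differences on the same arrays, so fits that reuse those arrays are not a separate test. All 20 kept their calls when any 1 of the 4 arrays was omitted, when the endothelial mean was a covariate and when the tumour arrays joined the fit.

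**Figure D3:**
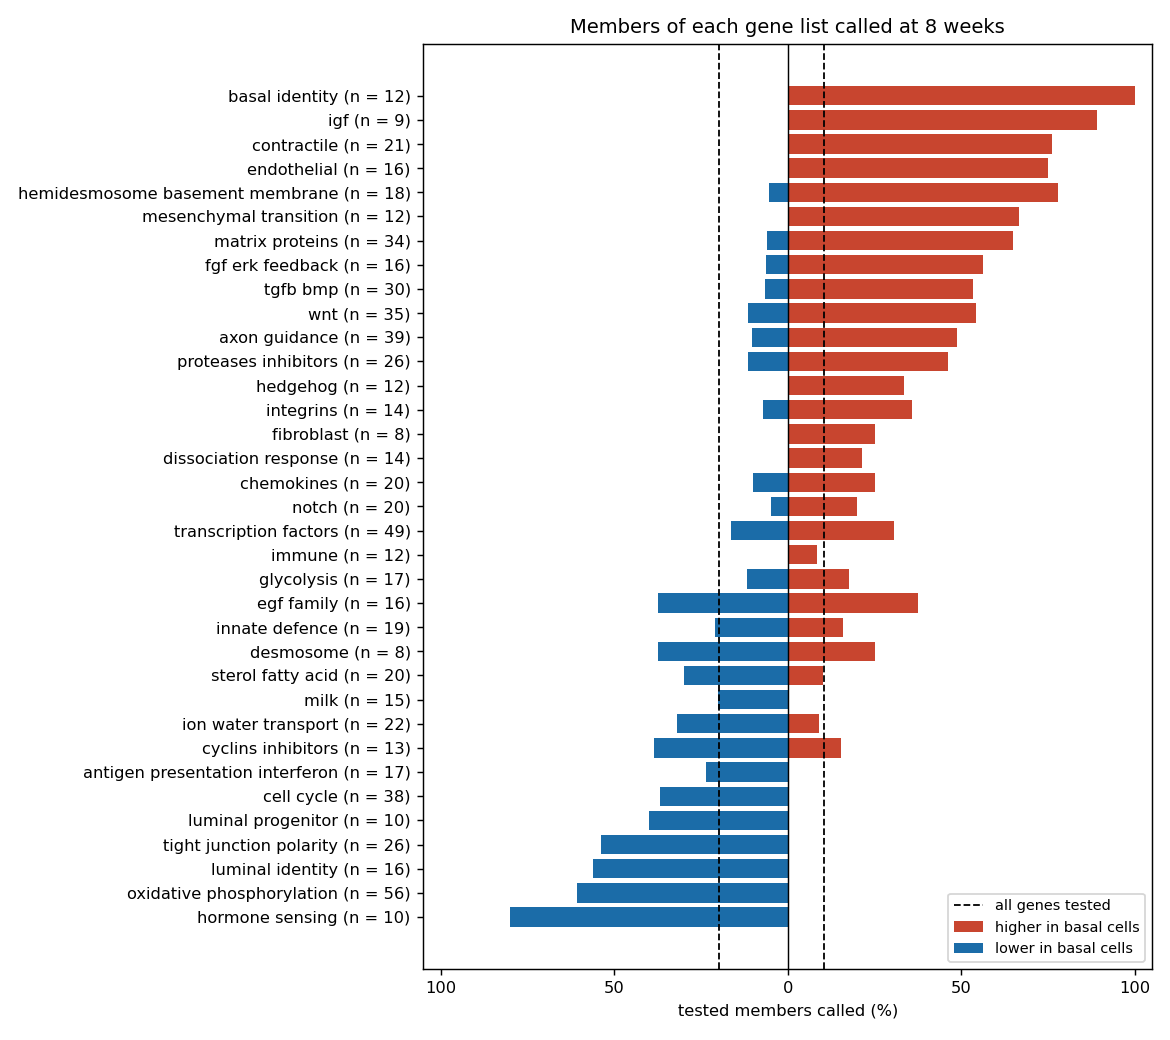
Percent of the tested members of 35 gene lists of at least 8 tested genes called higher (red, to the right) or lower (blue, to the left) in basal cells at 8 weeks, with the number tested in brackets. Dashed lines mark the share of all genes, 10.4% higher and 19.9% lower. Basal identity reaches 100% at the top, and hormone-sensing and oxidative phosphorylation genes lie at the bottom.

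On the luminal side, hormone-sensing genes were lower in basal cells in 8 of 10, against 19.9% of all genes, with a median of -2.22. With the endothelial covariate 3 of the 10 were lower (median -2.38), with Cited1, Greb1, Prom1 and Pgr among those no longer called, and in the fit of all 28 arrays 4 were lower. Foxa1, which opens chromatin for the oestrogen receptor, read 8.19 and 7.85 on the luminal arrays and 3.94 and 4.56 on the basal arrays (-3.78 ± 0.39, adjusted p = 3.88e-05). Esr1, the oestrogen receptor, read 10.01 and 9.85 against 7.71 and 8.34 (-1.90 ± 0.33). Both basal arrays held clear Esr1 readings, below either luminal array. Pgr, the progesterone receptor, read 8.53 and 8.68 against 5.65 and 6.43 (-2.57 ± 0.64) and lost its call without basal replicate 1 (adjusted p up to 0.0769). Cited1, a coactivator of the oestrogen receptor, read 10.58 and 10.32 against 7.52 and 7.40 (-2.99 ± 0.53), the oestrogen-induced Greb1 5.85 and 5.99 against 4.00 and 3.65 (-2.09 ± 0.36) and the surface marker Prom1 9.81 and 10.04 against 7.30 and 7.73 (-2.41 ± 0.50). Tnfsf11, the RANKL cytokine that progesterone induces, differed by -0.18 (-0.60 to 0.24) and Tbx3 by -0.36 (-0.81 to 0.09).

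Of 16 luminal identity genes 9 were lower, with a median of -1.38. Between 5 and 7 were left when 1 array was omitted, with 5 without luminal replicate 1 and 5 without basal replicate 1. The Ets-family factors Spdef (7.40 and 8.09 against 4.91 and 5.48, -2.55 ± 0.29), Ehf (8.59 and 8.85 against 6.04 and 6.75, -2.33 ± 0.49) and Elf3 (-1.30 ± 0.27) were lower, and so was Krt7, with 10.70 and 10.81 against 8.36 and 8.90 (-2.12 ± 0.44). Krt8 read 12.04 and 11.90 against 11.52 and 11.41 and Krt18 11.71 and 11.68 against 10.85 and 10.74, both high on every array. Their differences of -0.50 ± 0.17 and -0.90 ± 0.27 were called, yet neither was called in any fit that left out 1 of the 4 arrays (adjusted p up to 0.201 and adjusted p up to 0.11). The adhesion molecule Epcam differed by -0.44 (adjusted p = 0.0917) and E-cadherin, Cdh1, by -0.74 (adjusted p = 0.0694).

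Of 10 luminal progenitor genes 4 were lower, and 2 without luminal replicate 1. Elf5, the factor of alveolar fate, read 7.02 and 7.33 against 4.72 and 4.55 (-2.54 ± 0.28, adjusted p = 5.64e-05) and the receptor tyrosine kinase Kit 5.85 and 5.61 against 3.88 and 3.89 (-1.84 ± 0.30), which kept their calls. Of 15 milk genes 3 were lower, near the background share. Stat5a, the transcription factor of lactation, read 10.27 and 10.47 against 9.21 and 9.31 (-1.12 ± 0.21). The caseins were not called. Csn2 read 10.11 and 9.51 against 8.24 and 9.19 and Csn3 11.19 and 10.88 against 10.32 and 10.11, and the differences were -1.10 (adjusted p = 0.442) and -0.82 (adjusted p = 0.13).

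Tight junction and polarity genes, which seal the lumen, were lower in 14 of 26 and higher in none, with a median of -1.23. Marveld3 read 7.71 and 7.51 against 4.90 and 5.07 (-2.63 ± 0.28, adjusted p = 4.44e-05) and Marveld2, or tricellulin, 8.94 and 8.39 against 6.37 and 6.55 (-2.21 ± 0.32). Cingulin, Cgn, read 8.11 and 7.57 against 5.26 and 5.41 (-2.51 ± 0.28) and Cldn1 9.43 and 9.07 against 7.13 and 7.33 (-2.02 ± 0.45). In these genes, as in every gene called lower, both basal arrays lay below both luminal arrays. The polarity genes Pard6b (7.97 and 7.75 against 5.90 and 5.82, adjusted p = 0.00184) and Crb3 (-1.56 ± 0.26), the trafficking GTPase Rab25 (-2.13 ± 0.44) and the epithelial splicing regulators Esrp1 (-0.72 ± 0.16) and Esrp2 (-1.37 ± 0.24) were lower. Occludin, Ocln, read 8.95 and 8.38 against 5.99 and 6.53 (-2.41 ± 0.54) and was not called without luminal replicate 1 (adjusted p up to 0.0547). The scaffold Tjp1 (-0.25, -0.66 to 0.16) was not called. Among 8 desmosome genes 2 were higher and 3 lower, the lower calls 1 without luminal replicate 1 or basal replicate 1 and the higher calls 0 without luminal replicate 2 or basal replicate 1. Only the plakophilin Pkp2 kept its call, with 7.56 and 6.79 against 4.58 and 4.16 (-2.81 ± 0.36).

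Ion and water transport genes were lower in 7 (31.8%) and higher in 2 (9.09%) of 22, beside 19.9% and 10.4% of all genes. The lower calls numbered 0 without basal replicate 1 and 3 without luminal replicate 1, and the higher calls 1 without luminal replicate 1 or basal replicate 2. The bicarbonate carrier Slc4a4 was higher, with 5.58 and 5.48 against 6.78 and 7.16 (1.44 ± 0.25). Innate defence genes were higher in 3 (15.8%) and lower in 4 (21.1%) of 19, close to the shares of all genes, with 2 lower without luminal replicate 1 and 2 without basal replicate 1. Slpi, a secreted inhibitor of leukocyte elastase, was higher (9.36 and 8.95 against 11.04 and 11.11, 1.92 ± 0.40), and its relative Wfdc2 was lower (10.82 and 10.72 against 8.16 and 8.76, -2.31 ± 0.47). Tlr3, a sensor of double-stranded RNA, was lower (-1.31 ± 0.26). Antigen presentation and interferon genes were lower in 4 of 17 (23.5%), close to the 19.9% of all genes, with a median of -0.16. The count was 2 without luminal replicate 1, 1 without basal replicate 1 and 0 with the endothelial covariate. The interferon-induced protease Usp18 read 5.32 and 4.37 against 3.48 and 3.20 (-1.50 ± 0.27).

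Agtr1a, an angiotensin II receptor, had the largest fall, with 8.64 and 8.79 on the luminal arrays and 4.41 and 5.09 on the basal arrays (-3.96 ± 0.64, adjusted p = 0.00082). Bex1 read 7.80 and 8.37 against 4.09 and 4.59 (-3.74 ± 0.62), and the peptidylarginine deiminase Padi2, an oestrogen-responsive enzyme, 9.23 and 9.91 against 5.63 and 6.22 (-3.64 ± 0.38). Luminal readings of these genes were well above every basal reading. The claudin Cldn6 read 8.42 and 8.47 against 4.85 and 5.01 (-3.52 ± 0.29), the cysteine dioxygenase Cdo1 8.61 and 8.96 against 5.22 and 5.61 (-3.37 ± 0.45), and the magnesium transporter Nipal1 9.23 and 8.89 against 5.03 and 5.88 (-3.60 ± 0.42). The vesicle proteins Syt7 (-3.49), Mlph (-3.24) and Syn2 (-3.07), the kallikrein Klk10 (-3.35), and Plac8 (-3.57), Dnaic1 (-3.48), Slc35f3 (-3.38), Tlcd4 (-3.34), Slc25a35 (-3.08), H2bc4 (-2.97) and Pcp4 (-3.37) completed the 20 largest falls. Pcp4 was the only one of the 20 to lose its call when 1 array was omitted, namely luminal replicate 1 (adjusted p up to 0.0519). With the endothelial covariate Dnaic1, Pcp4 and Cited1 were no longer called, and in the fit of all 28 arrays Tlcd4 and Cited1 were not.

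Nuclear genes of oxidative phosphorylation read lower in basal cells as a group. Of 56 tested, 34 were lower and none higher, with a median of -0.71 where all genes had -0.09, and every one of the 56 differences was below 0. Averaged over the list, the luminal arrays read 9.75 and 9.80 and the basal arrays 8.91 and 9.15. Complex I had 16 of 24 genes lower, complex II 4 of 4, complex III 5 of 6, complex IV 6 of 9 and ATP synthase 3 of 12. Complex II, which links the citric acid cycle to respiration, had the lowest median, at -1.10. Its flavoprotein subunit Sdha read 9.36 and 9.42 against 7.03 and 8.18 (-1.78 ± 0.36) and its iron-sulphur subunit Sdhb 9.49 and 9.29 against 8.30 and 8.55 (-0.97 ± 0.21). The complex I genes Ndufs8 (7.75 and 7.90 against 5.89 and 6.51, -1.62 ± 0.31, adjusted p = 0.00226) and Ndufab1 (7.61 and 7.82 against 6.45 and 6.32, -1.33 ± 0.21) and the complex III gene Cyc1 (-0.83 ± 0.17) kept their calls without each array. The count of 34 depended on the arrays, with 10 without luminal replicate 1, 13 without luminal replicate 2, 5 without basal replicate 1 and 26 without basal replicate 2, and it was 3 with the endothelial covariate. With that covariate the median of the 56 differences was -0.67, against -0.71 without it. ATP synthase genes had a median of -0.46, and Atp5a1 differed by -0.12 (-0.49 to 0.24) and Atp5b by -0.32 (-0.72 to 0.08).

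**Figure D4:**
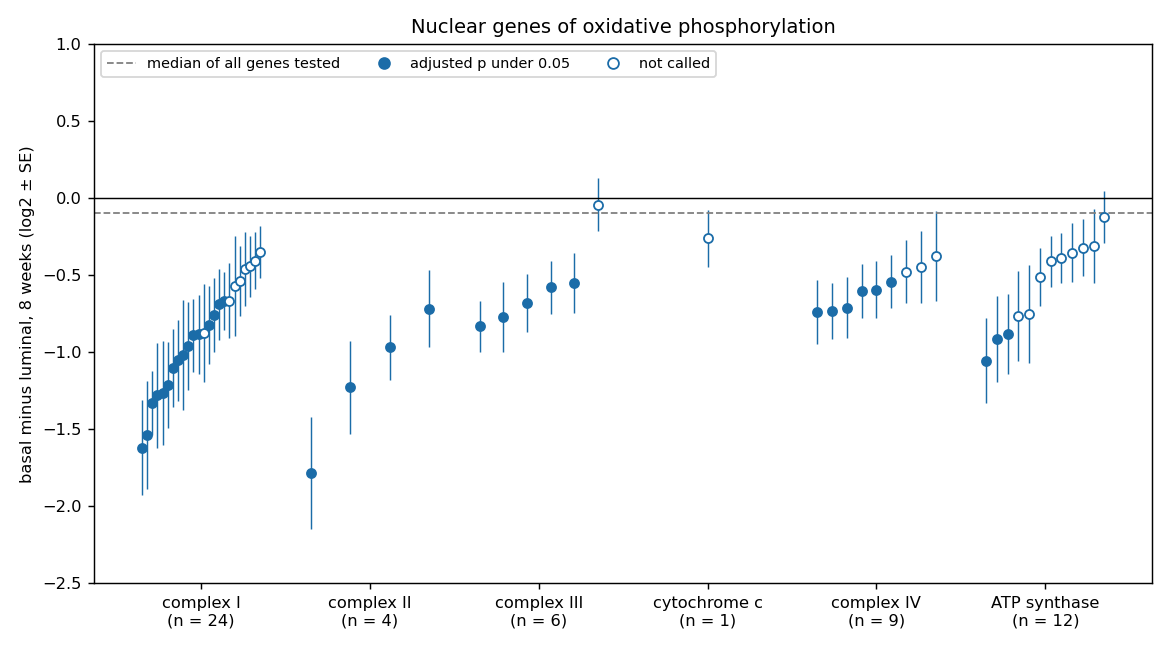
Basal minus luminal difference at 8 weeks (log2 ± SE) for 56 nuclear genes of oxidative phosphorylation, by complex. Filled points are called at an adjusted p under 0.05, and the dashed line is the median of all genes, -0.09. Every point lies below 0, with the lowest value at -1.78 in complex II and only Uqcrq, at -0.04, above the dashed line.

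The motif CCGGAAG, the core bound by Ets-family factors such as GABP, was searched in the same promoters on both strands, because it is common in genes of respiration. It was present in 13 of the 47 oxidative phosphorylation genes with a promoter and in 9.93% of all genes with one. Some genes that held it were not called, with differences from -0.77 to -0.36, and their stretches are not shown. Of the genes called lower, 5 held it wholly upstream of the gene start, and these stretches are shown with the motif, or its reverse complement, in capitals. Whether the motif goes with a lower reading was not tested.
Sdhd (chr9:50603864-50603920, minus strand): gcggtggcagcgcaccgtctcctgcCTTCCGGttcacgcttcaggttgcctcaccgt
Ndufs3 (chr2:90904722-90904773, minus strand): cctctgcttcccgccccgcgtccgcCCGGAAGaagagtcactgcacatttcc
Atp5j (chr16:84835006-84835062, minus strand): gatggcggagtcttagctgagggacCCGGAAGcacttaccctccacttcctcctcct
Cox6b1 (chr7:30626115-30626167, minus strand): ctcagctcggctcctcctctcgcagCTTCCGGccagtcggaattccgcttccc
Cox6a1 (chr5:115348959-115348999, minus strand): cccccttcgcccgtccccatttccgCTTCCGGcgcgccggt
The differences of these genes were -0.72 ± 0.25 for Sdhd, -1.10 ± 0.26 for Ndufs3, -0.88 ± 0.26 for Atp5j, -0.71 ± 0.20 for Cox6b1 and -0.54 ± 0.17 for Cox6a1. Ndufs3 lost its call without basal replicate 1, Atp5j without luminal replicate 1 or 2 or basal replicate 1, and the other 3 in each fit that left out 1 of the 4 arrays, with adjusted p up to 0.222 for Sdhd. A match of letters is not evidence of binding.

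The promoter search covered 8 motifs in 6 of the lists, and each count is a description. The CArG box was also in 1 of 19 tight junction and polarity promoters and in none of the other 4 lists. CCGGAAG was in 4 of 19 tight junction and polarity, 2 of 20 contractile and 1 of 12 luminal identity promoters and in none of the basal identity or hemidesmosome lists. CATTCC, the site of the TEAD partners of Yap1, was in 8 of 20 contractile, 3 of 7 basal identity and 4 of 12 luminal identity promoters, against 16.6% of all genes, and in 2 of 14 hemidesmosome, 2 of 19 tight junction and 5 of 47 oxidative phosphorylation promoters. TGACTCA, the AP-1 site, was in 2 of 7 basal identity, 4 of 19 tight junction, 2 of 20 contractile, 1 of 12 luminal identity and 4 of 47 oxidative phosphorylation promoters and in none of 14 hemidesmosome promoters, against 5.95%. The forkhead sites TGTTTAC and TGTTTGC, in 4.05% and 5.76% of all genes, were in none of the basal identity, luminal identity, hemidesmosome or tight junction promoters, each in 1 of 20 contractile promoters, and in 1 and 2 of 47 oxidative phosphorylation promoters. The grainyhead site AACCGGTT, in 0.174% of all genes, was in none of the 6 lists. TATAAA was in 3 of 12 luminal identity, 1 of 7 basal identity, 1 of 14 hemidesmosome, 2 of 19 tight junction, 2 of 20 contractile and 2 of 47 oxidative phosphorylation promoters, against 15.7%.

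Glycolysis genes were called at about the share of all genes. Of 17, 3 (17.6%) were higher and 2 (11.8%) lower, with a median of 0.01, and the lower calls numbered 0 without basal replicate 1 and 1 without either luminal replicate. The lactate and pyruvate carriers were higher in basal cells, with Slc16a1 at 5.79 and 6.26 against 8.84 and 9.50 (3.14 ± 0.42, adjusted p = 0.000234) and Slc16a3 at 5.63 and 5.61 against 6.98 and 6.78 (1.26 ± 0.22). The glycolytic enzymes Pkm (-0.17, -0.48 to 0.14) and Ldha (0.21, -0.12 to 0.55) were not called. Of 20 sterol and fatty acid genes 6 (30%) were lower and 2 (10%) higher, beside 19.9% and 10.4% of all genes. The lower calls numbered 3 without luminal replicate 1 and 2 without basal replicate 1, and the higher calls 0 without luminal replicate 2 or basal replicate 1. The sterol enzymes Fdps (6.97 and 6.68 against 4.84 and 5.33, -1.74 ± 0.30) and Dhcr7 (7.64 and 7.69 against 5.39 and 6.64, -1.65 ± 0.31) kept their calls.

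Cell cycle genes were lower in basal cells in 14 of 38 and higher in none, with a median of -0.82. The count was 8 without luminal replicate 1, 5 without luminal replicate 2, 4 without basal replicate 1 and 11 without basal replicate 2, and it was 2 with the endothelial covariate. The median of the 38 differences with that covariate was -0.81, against -0.82 without it. The replication helicase subunit Mcm2 read 5.57 and 6.30 against 3.66 and 4.37 (-1.92 ± 0.31), the mitotic kinase Aurka 6.57 and 7.02 against 4.75 and 5.45 (-1.70 ± 0.33) and thymidine kinase Tk1 5.63 and 5.87 against 4.22 and 4.41 (-1.44 ± 0.32). These 3 and the replication factor Gins1 (-1.39 ± 0.27) kept their calls. The mitotic gene Cdca8 differed by -1.41 (adjusted p = 0.0883) and the activator Cdc20 by -0.91 (adjusted p = 0.137), neither called. Of 13 cyclins and inhibitors 2 were higher and 5 lower, the latter 1 without luminal replicate 1, luminal replicate 2 or basal replicate 1. Ccnd1, the cyclin that growth signals induce, was lower, with 10.10 and 10.34 against 8.78 and 8.86 (-1.40 ± 0.21), and the inhibitor Cdkn1c, or p57, higher, with 4.38 and 4.52 against 6.41 and 7.13 (2.32 ± 0.28). Ccnd2 was higher by 2.70 ± 0.61 and lost its call without luminal replicate 1 (adjusted p up to 0.0638). Genes that tissue digestion can induce were higher in 3 of 14 and in 0 without luminal replicate 1 or basal replicate 2. Their means were 10.02 and 10.03 against 10.11 and 10.61, and their part in the results was not tested.

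The endothelial covariate and the fit of all 28 arrays moved the counts of other lists too, along with those of all genes. With the covariate, higher calls over all 13150 genes went from 1373 to 415 and lower calls from 2614 to 799. The fit of all 28 arrays tested 13663 genes and called 755 higher and 1564 lower. With the covariate, higher calls went from 19 to 8 of 35 Wnt genes, from 16 to 7 of 30 TGF-beta and BMP genes, from 19 to 8 of 39 axon guidance genes and from 9 to 2 of 16 FGF and ERK feedback genes. They went from 14 to 9 of 18 hemidesmosome and basement membrane genes, from 12 to 6 of 26 protease genes, from 6 to 1 of 16 EGF family genes, from 5 to 1 of 14 integrins and from 15 to 7 of 49 transcription factors. Basal identity kept 8 of 12. Lower calls went from 14 to 12 of 26 tight junction and polarity genes, from 9 to 6 of 16 luminal identity genes and from 4 to 3 of 10 luminal progenitor genes. In the fit of all 28 arrays lower calls were 7 of 26 for tight junction and polarity, 3 of 16 for luminal identity, 0 of 10 for luminal progenitor, 3 of 38 for cell cycle and 31 of 56 for oxidative phosphorylation genes. Higher calls in that fit were 9 of 12 for basal identity and 14 of 21 for contractile genes.

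The same contrast was measured in cells of the same 2 genotypes 10 months after tamoxifen, with 2 arrays per layer. The comparisons share no array, but they share the estimate of spread, so calls at the 2 times are not independent. The Cre driver changed together with the layer in both. Endothelial genes were called higher in basal cells in 12 of 16 and lower in 0 at 10 months too. Agreement between the times therefore cannot tell the layer from the driver or mouse line, and the part of other cells in it was not tested. At 10 months 43.4% of genes were called, 17.6% higher and 25.8% lower. Of the 1373 genes higher in basal cells at 8 weeks, 1134 (82.6%) were called higher at 10 months and 6 were called lower. Of the 2614 genes lower at 8 weeks, 2070 (79.2%) were called lower at 10 months and 11 were called higher. Krt5 differed by 4.36 ± 0.32 at 10 months, Tenm2 by 6.19 ± 0.31, Foxa1 by -4.30 ± 0.39 and Agtr1a by -4.43 ± 0.64. By list, the medians at 8 weeks and 10 months were 2.59 and 3.45 for basal identity, -2.22 and -3.29 for hormone-sensing, -0.71 and -0.98 for oxidative phosphorylation and -0.82 and -2.04 for milk genes. Cell cycle genes had 14 of 38 lower at 8 weeks and 3 at 10 months, with medians of -0.82 and -0.19. IGF genes had 8 of 9 higher at 8 weeks, and 3 higher and 2 lower at 10 months. These differences between lists were not tested as such.

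The test of the difference between the 8-week and the 10-month contrast called 7 of 13150 genes (0.0532%), 4 with a higher value at 8 weeks (0.0304%) and 3 with a lower one (0.0228%). The growth factor Igf2 had opposite directions at the 2 times. At 8 weeks it read 5.49 and 6.11 against 7.12 and 7.61 (1.57 ± 0.34) and at 10 months 8.13 and 8.39 against 6.27 and 6.86 (-1.69 ± 0.34), so the contrast differed by 3.26 ± 0.48 (adjusted p = 0.0363). Its 8-week call was lost without luminal replicate 1 (adjusted p up to 0.058). Cdc27, a subunit of the anaphase-promoting complex, read 6.05 and 5.95 against 5.18 and 5.23 at 8 weeks and 5.66 and 5.70 against 6.74 and 6.58 at 10 months, a difference of -1.77 ± 0.27 (adjusted p = 0.0403). The other 5 had both 8-week groups at, near or below the dim limit. The number called was 3 without either luminal replicate, 4 without basal replicate 1 and 0 without basal replicate 2.

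**Figure D5:**
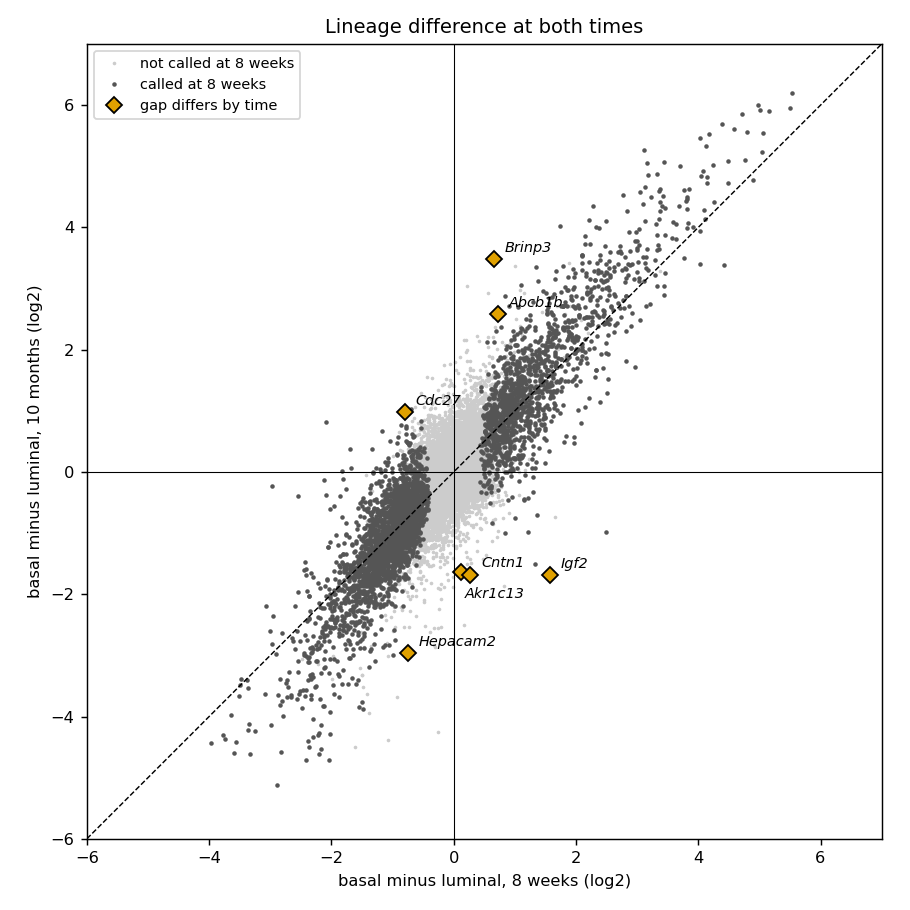
Basal minus luminal difference (log2) at 8 weeks on the horizontal axis and at 10 months on the vertical axis for 13150 genes. Dark points are called at 8 weeks, grey points are not, diamonds are the 7 genes whose difference was called as unequal between the times, and the dashed line marks equal differences. Most dark points lie in the quadrants of equal sign, and Igf2 lies at 1.57 on the first axis and -1.69 on the second.

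Where several probe sets of a gene were bright enough to compare, they usually pointed the same way. Of 1832 called genes with more than 1 such probe set, 1669 (91.1%) had the same sign in all of them, and 163 had at least 1 probe set of the opposite sign. The widest opposite readings were in Cbx5, Dnlz, Glt8d1, Prdx2 and Smyd5. In Prdx2, a peroxidase, the probe set used read 10.83 and 10.80 against 9.38 and 10.18, and another probe set read 5.08 and 6.18 against 6.43 and 7.26. In Cbx5, a heterochromatin protein, 4 of 5 probe sets were lower in basal cells, from -1.36 to -0.77, and 1 was higher, at 1.06. The direction for these genes is uncertain.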

How the data were processed

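Total RNA of sorted mammary cells was extracted with a micro column kit, labelled with biotin and measured on Affymetrix arrays, per the labels' protocols. The authors deposited log2 expression values of 45141 probe sets on 28 arrays. The submitters' processing notes name R 2.14.0, and the background correction and normalization are not given in the sources used here. The deposited log2 values ran from 1.67 to 12.7 and differed between arrays by at most 0.558 at one rank, so they were used without further scaling. Of the probe sets, 28898 have 1 gene symbol in GEO's platform annotation, and gene identifiers tied 28689 of them to the reference. Not used were 551 with several symbols and 15692 that the annotation does not list. Each of the 17097 genes was represented by its brightest probe set (by the mean of the 28 arrays). Genes were kept for testing when at least 2 of the 16 sorted arrays read above their own 40th percentile, which set aside 3947.

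limma 3.58.1 in R 4.3.3 was fitted to the 16 sorted arrays with a mean for each of the 8 groups and moderated variances. The scripts were tested on simulated data. Samples were grouped by the labels. The labels do not say whether replicate numbers pair the arrays, and the groups differ in mouse line, so no pairing was used in the main fit. Same-numbered deviations correlated at 0.115 across genes, which cannot settle whether the arrays were paired. The number of arrays limits the precision.

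The gene lists (40 lists, 830 genes, 757 on the array, 705 tested) and the members were chosen with earlier results of these data known. Named genes are the 20 largest called rises and falls without overlap, list members, genes called for the difference between times, and the 5 with the most opposed probe sets. The largest rises and falls were picked on the same arrays that the other fits reuse, so their kept calls are not a separate test. Alternatives were other arrays in the fit, dim filters, the mean of probe sets, the prior, quantile normalization, a replicate block, an endothelial covariate and leaving out each array. Promoters came from the RefSeq table of build GRCm38.p6, and 8 motifs were searched. The files name no genome build, so the positions given are those of the promoter stretches in that table.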

Additional observations from a re-analysis of the deposited data

Results flagged for a closer look

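For 7 genes the basal minus luminal difference at 8 weeks was unlike that at 10 months by limma's test of that difference. The signed difference was higher at 8 weeks than at 10 months for Igf2 (3.26 ± 0.48), Hepacam2 (2.21 ± 0.27), Cntn1 (1.95 ± 0.27) and Akr1c13 (1.76 ± 0.25). It was lower at 8 weeks for Brinp3 (-2.83 ± 0.41), Abcb1b (-1.87 ± 0.27) and Cdc27 (-1.77 ± 0.27). In the first set, for Hepacam2 and Akr1c13 the difference was of smaller size at 8 weeks, at -0.75 against -2.96 ± 0.19 and 0.12 against -1.64 ± 0.17. Hepacam2 read 4.24 and 3.73 against 3.07 and 3.40 at 8 weeks and 5.79 and 5.85 against 2.76 and 2.96 at 10 months, so the luminal readings were the ones far apart in time. Brinp3 read 2.81 and 2.92 against 3.30 and 3.74 at 8 weeks and 3.27 and 2.97 against 6.28 and 6.93 at 10 months, with the basal readings far apart.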

How the results depend on the processing

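Omitting 1 of the 4 arrays gave 2094 to 3298 calls, against 3987 with all, with 868 to 1134 higher and 1226 to 2297 lower. Of the 8-week calls, 1861 to 2762 were called alike at 10 months, against 3204, list members called were 226 to 289, against 362, genes with unequal differences at the 2 times were 0 to 4, against 7, and 39 to 40 of the 40 largest differences stayed called. The fit of all 28 arrays gave 2319 calls (755 higher, 1564 lower), 1948 called alike at 10 months, 213 list members and 0 genes with unequal differences. The endothelial covariate gave 1214 calls (415 higher, 799 lower), 1096 called alike, 148 list members and 12 unequal differences. A fit of the 4 arrays alone, without mutant cells, called 3237 of 12361 genes at 8 weeks, 1132 higher and 2105 lower. The normal arrays of each comparison alone gave 25 unequal differences and the trended robust prior 16. With the replicate number as a block the calls numbered 4425 and the unequal differences 41. Among the named genes the block ended the call of Krt15 alone and added Cdca8 and Cdh1. The cause of these shifts was not tested. Under quantile normalization 43.1% of the calls were higher, against 34.4%.

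Among the named genes and the settings run, directions turned only for genes that were not called. With the endothelial covariate the differences were -0.58 for Col1a1, -0.65 for Col3a1, -0.16 for Gata3, -0.057 for Dll4, 0.10 for Itga2, -0.12 for Sox9 and -1.32 for Zeb1. Quantile normalization gave 0.016 for Dcn and 0.028 for Itga2, and the mean of probe sets -0.041 for Sox9. Omitting 1 array gave ranges of -0.10 to 0.34 for Akr1c13, -0.49 to 0.34 for Dcn, -0.27 to 0.36 for Gata3, -0.43 to 0.16 for Itga2, -0.13 to 0.18 for Itgb4, -0.014 to 0.13 for Lcn2, -0.075 to 0.26 for Notch2, -0.068 to 0.15 for Sox9, -0.40 to 0.40 for Srf, -0.51 to 0.0066 for Tjp1 and -0.43 to 1.06 for Zeb1. With 2 arrays a group, differences of these sizes were not detectable, and readings below the dim limit bound no difference.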
